A study of Mus musculus with 36 samples.

Results

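Lung RNA of mice given ultrasmall sheets of graphene oxide (US) is compared here with lung RNA of mice given the carrier alone (D), 1 day after a single instillation into the nose. Levels are given in CPM, read counts scaled to the total of each library in the usual way. The comparison takes 6 of the 36 libraries of the series, 3 per group, chosen by their titles in the labels, and every gene with enough counts, 16903 in all. Both groups were wild type female C57BL/6 mice, a common inbred strain, aged 9 weeks. US mice received 50 μg of graphene oxide, single carbon layers that carry oxygen groups, dispersed in 5% dextrose, and D mice received the same volume of 5% dextrose with 0 μg. All were briefly anaesthetised with isoflurane, and small pieces of every lobe were taken after the large airways had been removed. The series varies sheet size and time, and so also holds small (S) and large (L) sheets and days 7 and 28, which enter here only for tests of difference. The labels' protocols give 4 to 5 animals per group and do not say which animal gave which library. The tests below therefore take their error from differences among libraries of a group, which may be partly technical.

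Inhaled particles are met in the airspaces by resident macrophages and by the epithelium, which release chemokines. ELR CXC chemokines, ligands of the receptor Cxcr2, draw neutrophils from the blood, while CC chemokines draw monocytes and lymphocytes. The same signals, carried by interleukin 1, interleukin 6 and NF-kB, switch on acute-phase and mucosal defence genes such as serum amyloid A and lipocalin 2.

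At day 1 the US lungs carried more transcript of the neutrophil chemokines Cxcl5 and Cxcl1, of lipocalin 2 (Lcn2), of the interleukin 1 decoy receptor Il1r2 and of 7 further genes, and less of Slco5a1, Lifr, Ccdc28a and Sfxn4. These 15 genes passed the threshold of an adjusted p of 0.05 in edgeR's quasi-likelihood test with Benjamini-Hochberg adjustment, which is 0.0887% of the genes tested. The 11 that rose made up 0.0651% and the 4 that fell 0.0237%, beside 2724 genes at an unadjusted p under 0.05. The median log2 fold change over all genes was 0.006, and 275 genes lay above 1 and 306 below -1. In 5.72% of the genes all 3 US libraries lay above all 3 D libraries, and in 10.4% all 3 lay below. Those are the shares beside which the counts of list members are given below. A positive log2 fold change was seen in 50.9% of all genes. The lists were chosen with earlier results of these data known, so their shares describe the members and are no test.

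Total counts ran from 16154696 to 21734481 in the 6 libraries, so that a level of 1 CPM rested on 16.2 to 21.7 counts. In the other 30 libraries they ran from 16554469 to 23808264, with 1 library at 80566751. Lung identity was plain in all 6 libraries: Sftpc, the surfactant protein of alveolar type 2 cells, stood at 9941 CPM or above. It was at 17990 to 20520 CPM in D and at 9941, 18230 and 12400 CPM in US replicates 1 to 3. Its log2 fold change was -0.43 (standard error 0.21), and it was not called. US replicate 1 stood apart, at 47.82 on the first principal component (59.8% of the variance of the 6 libraries), where the others lay between -20.59 and 5.86. On the log2(CPM + 1) scale 355 genes were over 2-fold above the D mean and 472 below it in US replicate 1, out of 14597 with a mean of at least 1 CPM. Those counts were 21 and 8 in US replicate 2 and 55 and 42 in US replicate 3. Leaving out D replicate 1, 2 or 3 left 0, 2 or 7 calls, leaving out US replicate 1 left 3, and leaving out US replicate 2 gave 887. All 15 calls held without US replicate 2 or 3, beside further ones, and Amer2 and Cxcl5 were the only ones of the 15 that held without US replicate 1. Amer2 passed in 5 of these 6 fits, Slco5a1 in 4, Cxcl5, Vnn3 and Sfxn4 in 3, and the other 10 genes in 2.

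**Figure D1:**
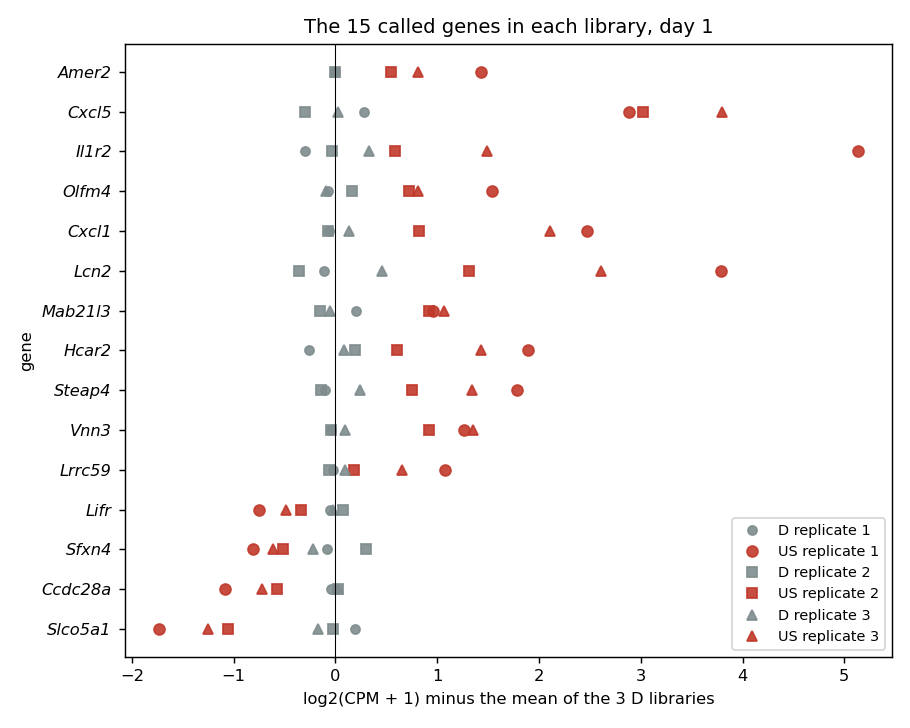
The 15 called genes, ordered by fitted log2 fold change. Each point is 1 library, placed at its log2(CPM + 1) minus the mean of the 3 D libraries (grey for D, red for US; circle, square and triangle for replicates 1 to 3). For every gene the 3 US points lie on one side of the 3 D points, within 0.15 of each other for Mab21l3 and 4.55 apart for Il1r2.

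Cxcl5 (ENSMUSG00000029371), a Cxcr2 ligand of the epithelium, spans 90759360 to 90761624 on chromosome 5 of the mouse build GRCm38. It stood at 0.867, 0.246 and 0.561 CPM in D replicates 1 to 3 and at 10.3, 11.4 and 20.4 CPM in US replicates 1 to 3. All 3 US libraries lay far above the D range, and US replicate 3 was the highest. Cxcl5 rose by a log2 fold change of 4.70 ± 0.80 (standard error, SE), 26.0-fold (adjusted p = 0.0113). Its adjusted p was 0.0227 without US replicate 1 and 0.2 without D replicate 2.

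Cxcl1 (ENSMUSG00000029380), another Cxcr2 ligand, spans 90891241 to 90893115 on the same chromosome. Its levels were 0.495, 0.491 and 0.714 CPM in D and 7.64, 1.77 and 5.74 CPM in US. The groups did not overlap, and US replicate 2 was nearest to D. Cxcl1 rose by 3.21 ± 0.60 on the log2 scale (adjusted p = 0.0217), and its adjusted p was 0.236 without US replicate 1. Cxcl2, a ligand of the same receptor, was not called: it stood at 0.433, 0.184 and 0.714 CPM in D and at 6.90, 0.832 and 3.22 CPM in US (3.08 ± 0.75, adjusted p = 0.0592). Cxcl3 (1.46 ± 0.61) and the receptor genes Cxcr1 (1.42 ± 0.53) and Cxcr2 (2.22 ± 0.50, adjusted p = 0.0581) were not called either. Cxcr2 stood at 98.0 CPM in US replicate 1, 22.2 CPM in US replicate 3 and 11.7 CPM in US replicate 2, the last inside the D range of 8.67 to 11.7 CPM. Ppbp (-0.52 ± 0.25), the platelet member, and Cxcl15 (-0.06 ± 0.18), which lung epithelium makes at 1354 to 2738 CPM, had negative values. Of the 8 genes tested in the list of ELR chemokines and their receptors 2 rose, 0 fell and 6 were not called, with a median of 1.84. In 4 of them all US libraries lay above all D libraries (50.0%) and in 1 all lay below (12.5%). The naming rule covers 4 of these 8 genes, and Cxcl3, Cxcr1, Ppbp and Cxcl15 were added after their values were seen, to account for the whole list.

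The promoters of Cxcl1, Cxcl2 and Cxcl3 are shown because these 3 ligand genes carry the same NF-kB motif, although Cxcl2 and Cxcl3 were not called. Olfm4 is shown because, among the 12 called genes with a matched promoter, it is the other one with that motif close to its start. Each line gives, 5′ to 3′, the 130 bases before the RefSeq start site on the gene's strand (all plus), in build GRCm38.p6, and capitals mark matches to the kappa-B consensus on either strand. The windows are chr5:90891115-90891244 for Cxcl1, chr5:90903769-90903898 for Cxcl2, chr5:90785971-90786100 for Cxcl3 and chr14:80000172-80000301 for Olfm4.
Cxcl1: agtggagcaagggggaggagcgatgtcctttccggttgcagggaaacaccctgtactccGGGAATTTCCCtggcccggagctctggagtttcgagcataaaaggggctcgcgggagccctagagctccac
Cxcl2: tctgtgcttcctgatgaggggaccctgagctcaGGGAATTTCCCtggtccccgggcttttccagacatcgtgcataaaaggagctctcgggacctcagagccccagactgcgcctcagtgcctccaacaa
Cxcl3: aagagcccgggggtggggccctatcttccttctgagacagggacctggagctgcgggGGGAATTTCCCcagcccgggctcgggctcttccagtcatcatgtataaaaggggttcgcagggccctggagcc
Olfm4: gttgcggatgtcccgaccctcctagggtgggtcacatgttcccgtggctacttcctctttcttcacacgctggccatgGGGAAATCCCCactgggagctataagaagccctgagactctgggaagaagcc
The Cxcl1, Cxcl2 and Cxcl3 matches are the same run of letters and begin 71, 97 and 73 bases before the start. RefSeq promoters of 250 bases before to 50 after the start were matched for 12 of the 15 called genes. None was matched for Cxcl5, Hcar2 and Slco5a1, so the motif is not known for them here. On either strand, counting genes and not matches, 3 of the 12 hold the kappa-B consensus (Olfm4, Cxcl1 and Steap4), against 6.41% of the 11832 tested genes with a promoter. In the list of ELR chemokines and receptors 3 of the 7 matched genes hold it, and Ppbp, Cxcl15, Cxcr1 and Cxcr2 do not. The C/EBP-type motif TTGCNNAA is in 3 of the 12 (Lcn2, Steap4 and Vnn3) and in 10 of the 16 matched acute-phase genes, against 10.67%, and the AP-1 motif TGANTCA is in 0 of the 12, against 6.86%. Steap4 is the only one of the 12 that holds both of the first motifs, at separate positions. These matches describe letters in a window and show no binding.

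CC chemokines and the CXC chemokines outside the ELR group were not called. Of 22 tested members 0 rose, 0 fell and 22 were not called, 16 had a positive and 6 a negative value, and the median was 0.68, or 0.40 without US replicate 1. In 10 of them (45.5%) all US libraries lay above all D libraries, and in 1 (4.5%), Ccl5, all lay below. Ccl5, added after its values were seen, was at 19.8 to 22.5 CPM in D and 8.37 to 18.67 CPM in US (-0.55 ± 0.37). Ccl20, which attracts dendritic cells and a class of T cells, was nearly level among the US libraries: 0.557, 0.491 and 0.765 CPM in D against 4.51, 7.12 and 5.58 CPM in US (3.28 ± 0.76, adjusted p = 0.0581). Ccl3, a macrophage inflammatory protein, was alike in this, with 2.60, 1.41 and 2.60 CPM in D and 5.47, 4.16 and 6.99 CPM in US (1.38 ± 0.32). The monocyte attractant Ccl2 was uneven, with 1.05, 0.552 and 1.02 CPM in D and 18.5, 1.72 and 5.13 CPM in US (3.35 ± 0.76, adjusted p = 0.0581). Ccl7, another monocyte attractant, went with it (2.53 ± 0.62). US replicate 1 was the highest library for Ccl2 and Ccl7 and the lowest US library for Ccl20.

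**Figure D2:**
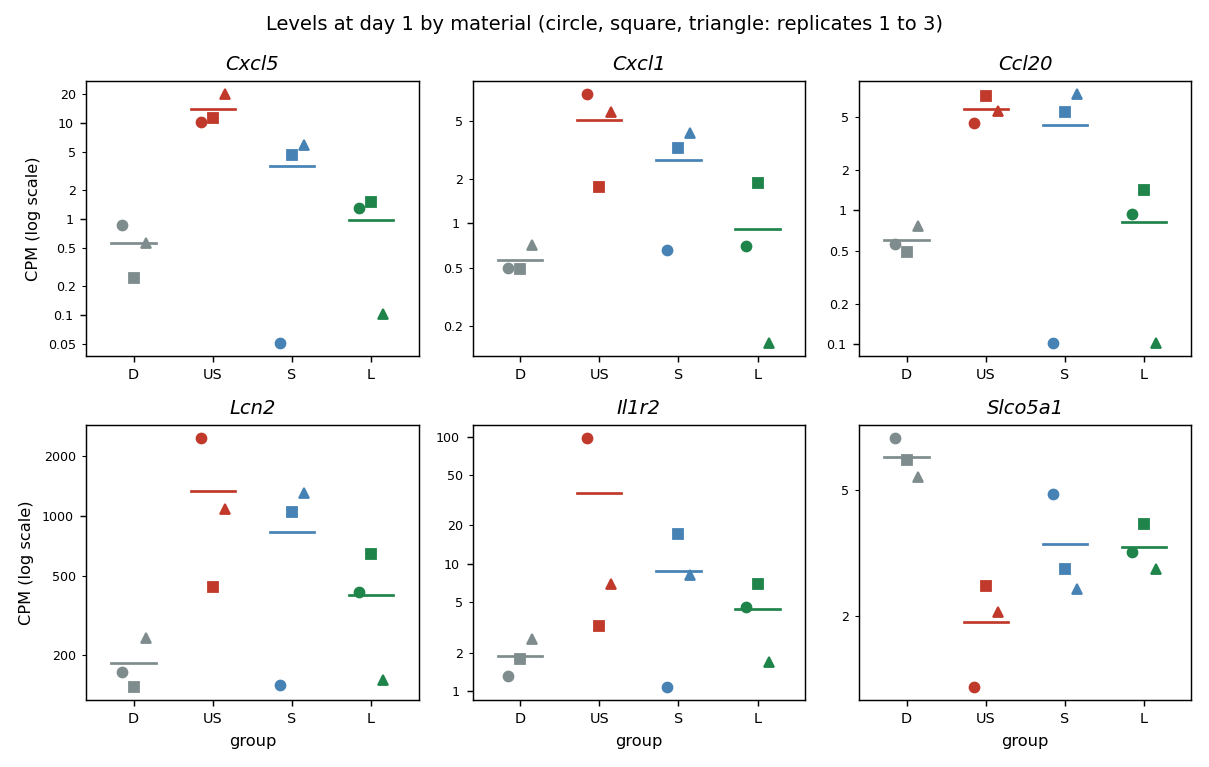
Levels of 6 genes at day 1 in D, US, S and L, in CPM on a log scale. Each point is 1 library (circle, square and triangle for replicates 1 to 3), and each bar is the group mean. S replicate 1 and L replicate 3 lie near or below the D libraries for Cxcl5, Ccl20, Lcn2 and Il1r2, while the 3 US libraries lie above D.

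Il1r2 (ENSMUSG00000026073), which neutrophils carry as a decoy receptor for interleukin 1, spans 40074079 to 40125231 on chromosome 1. It stood at 1.3, 1.78 and 2.55 CPM in D and at 98.0, 3.22 and 6.94 CPM in US. The groups did not overlap, yet US replicate 2 was only just above the highest D library. Il1r2 rose by 4.35 ± 0.85 on the log2 scale (adjusted p = 0.0351), and without US replicate 1 its adjusted p was 0.602. A pair of predicted genes overlap it, at 23 and 137 counts over all 36 libraries against 4209 for Il1r2. Olfm4, which marks a subset of neutrophils and is also made by epithelium, stood at 0.0619, 0.246 and 0.0510 CPM in D and at 2.25, 0.832 and 0.956 CPM in US. It rose by 3.56 ± 0.66 (adjusted p = 0.0217, or 0.253 without US replicate 1).

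Among 25 tested neutrophil granule and surface genes 1 rose (Il1r2), 0 fell and 24 were not called. Their median was 1.06 and 0.38 without US replicate 1. In 5 of the 25 all US libraries lay above all D libraries, a pattern seen in 5.72% of all genes. The other members overlapped. Csf3r was at 35.6 to 47.5 CPM in D and at 184.6, 41.3 and 62.0 CPM in US (1.31 ± 0.41). Itgam was at 27.8 to 35.1 CPM in D and at 116.7, 32.1 and 45.9 CPM in US (1.16 ± 0.33). US replicate 2 lay inside the D range for both. Fpr1 (-0.1 ± 0.25), Ltf (-0.06 ± 0.42) and Hdc (-0.06 ± 0.14) had the 3 negative values. These overlapping genes were added after their values were seen. Mmp8, the neutrophil collagenase, stood at 5.63, 6.45 and 5.71 CPM in D and 16.8, 7.49 and 12.4 CPM in US (1.12 ± 0.26, adjusted p = 0.0581), and Cd177, a neutrophil surface protein, at 3.53, 2.58 and 7.04 CPM against 29.7, 11.2 and 10.1 CPM (2.02 ± 0.49). The alarmin subunits S100a8 (1.35 ± 0.40) and S100a9 (0.95 ± 0.39) were chosen after their values were seen, and neither was called. S100a8 had 25.2, 24.0 and 32.4 CPM in D and 109.3, 37.0 and 51.0 CPM in US. Summed over the list, levels were 524 to 648 CPM in D and 1384, 654 and 717 CPM in US replicates 1 to 3. In such whole-tissue RNA a change in the number of cells of a type and a change in their RNA per cell cannot be told apart.

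Il1b, a secreted cytokine of the interleukin 1 family, was at 19.99, 16.5 and 20.6 CPM in D and 68.5, 25.9 and 38.6 CPM in US (1.3 ± 0.34), without overlap and without a call. Il1rn, its receptor antagonist, was at 18.9 to 20.4 CPM in D and at 95.2, 19.1 and 26.8 CPM in US (1.36 ± 0.37). Of 16 tested interleukin 1 family and inflammasome genes 1 rose, again Il1r2, 0 fell and 15 were not called (median 0.35, or 0.16 without US replicate 1).

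Lifr (ENSMUSG00000054263), the receptor of leukemia inhibitory factor, spans 7129559 to 7197489 on chromosome 15 and was the called member of the interleukin 6 group. Its levels were 148, 161 and 152 CPM in D and 90.6 and 121.4 CPM in US replicates 1 and 2, with replicate 3 between them. All US libraries lay below D, and US replicate 1 was lowest. Lifr fell by 0.46 on the log2 scale (SE 0.09, adjusted p = 0.0484, or 0.307 without US replicate 1). Osm, a cytokine of the same family, was at 2.54, 1.23 and 2.91 CPM in D and 4.69, 5.15 and 7.39 CPM in US (1.41 ± 0.38). Socs3, the feedback inhibitor of Stat3 signalling, was at 29.7 to 33.5 CPM in D and at 125.7, 34.0 and 48.0 CPM in US (1.24 ± 0.31). Il6 itself stood at 0.371 to 0.561 CPM in D and at 6.81, 0.416 and 1.26 CPM in US (2.72 ± 0.90), so that the groups overlapped. Of 14 tested members 0 rose, 1 fell and 13 were not called, with a median of 0.40, or 0.19 without US replicate 1.

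None of the TNF and NF-kB feedback genes was called. Nfkb2, an NF-kB subunit, was at 36.6, 36.8 and 39.4 CPM in D and 58.0, 46.2 and 51.0 CPM in US (0.53 ± 0.12, adjusted p = 0.0581). Tnfaip2 was at 54.1 to 58.1 CPM in D and 67.7 to 80.4 CPM in US (0.50 ± 0.12). Bcl3, a nuclear partner of NF-kB, was at 7.00 to 9.69 CPM in D and 10.8 to 18.9 CPM in US (0.83 ± 0.24). In 5 of the 19 members (26.3%) all US libraries lay above all D libraries, and in 1 (5.3%) all lay below. Over all genes these shares were 5.72% and 10.4%. The member below was Traf1, added after its values were seen. Traf1 was at 67.18 to 95.65 CPM in D and 37.04 to 63.65 CPM in US (-0.49 ± 0.15). Of the 19 members 16 were positive and 3 negative, 0 rose, 0 fell, and the median was 0.35, or 0.11 without US replicate 1.

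Among acute-phase and mucosal defence genes Lcn2 and Steap4 rose. Lcn2 (ENSMUSG00000026822), which encodes the siderophore-binding protein lipocalin 2, spans 32384633 to 32388252 on chromosome 2. It stood at 165, 138 and 245 CPM in D and at 2471, 441 and 1084 CPM in US. Every US library lay above the D range, and the highest held several times the lowest. Lcn2 rose by 2.95 ± 0.55 on the log2 scale (adjusted p = 0.0217, or 0.253 without US replicate 1). On the TPM scale, which divides by gene length, it was by far the more abundant of the called inflammatory genes: its level was 328.6 TPM in D and 2462 TPM in US on average, against 0.667 and 17.7 TPM for Cxcl5.

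Steap4, a metalloreductase of inflamed tissue, rose by 1.46 ± 0.30 (adjusted p = 0.0484, or 0.323 without US replicate 1), from 17.5, 16.9 and 22.3 CPM to 67.0, 32.4 and 49.1 CPM. Cd14, the co-receptor for bacterial lipopolysaccharide, was at 25.8, 23.4 and 35.8 CPM in D and 50.1 and 48.9 CPM in US replicates 2 and 3, with US replicate 1 higher still (1.33 ± 0.29, adjusted p = 0.0544). Saa1, a serum amyloid A, was at 0.184 to 0.255 CPM in D and at 16.0, 1.04 and 1.46 CPM in US (4.94 ± 1.08, adjusted p = 0.0544), and its near-identical copy Saa2 makes the split of reads between them uncertain. Saa3, chosen after its values were seen, was at 7.06, 2.58 and 14.1 CPM in D and 354, 45.45 and 121.3 CPM in US (4.52 ± 1.06, adjusted p = 0.0581). The 3 US libraries spanned a wide range for both, and none reached into the D range.

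Of 22 acute-phase members tested 2 rose, 0 fell and 20 were not called, with a median of 1.35 and of 0.80 without US replicate 1. In 17 of them (77.3%) all US libraries lay above all D libraries, against 5.72% of all genes. These members were chosen with earlier results of these data known, so the share is no test. Their summed level was 3471 to 4711 CPM in D and 8895, 6171 and 7344 CPM in US. Neutrophils also make Lcn2. The neutrophil list was highest in the same library, US replicate 1, with 22 of its 25 members at a positive value, and its part in the acute-phase values was not tested.

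**Figure D3:**
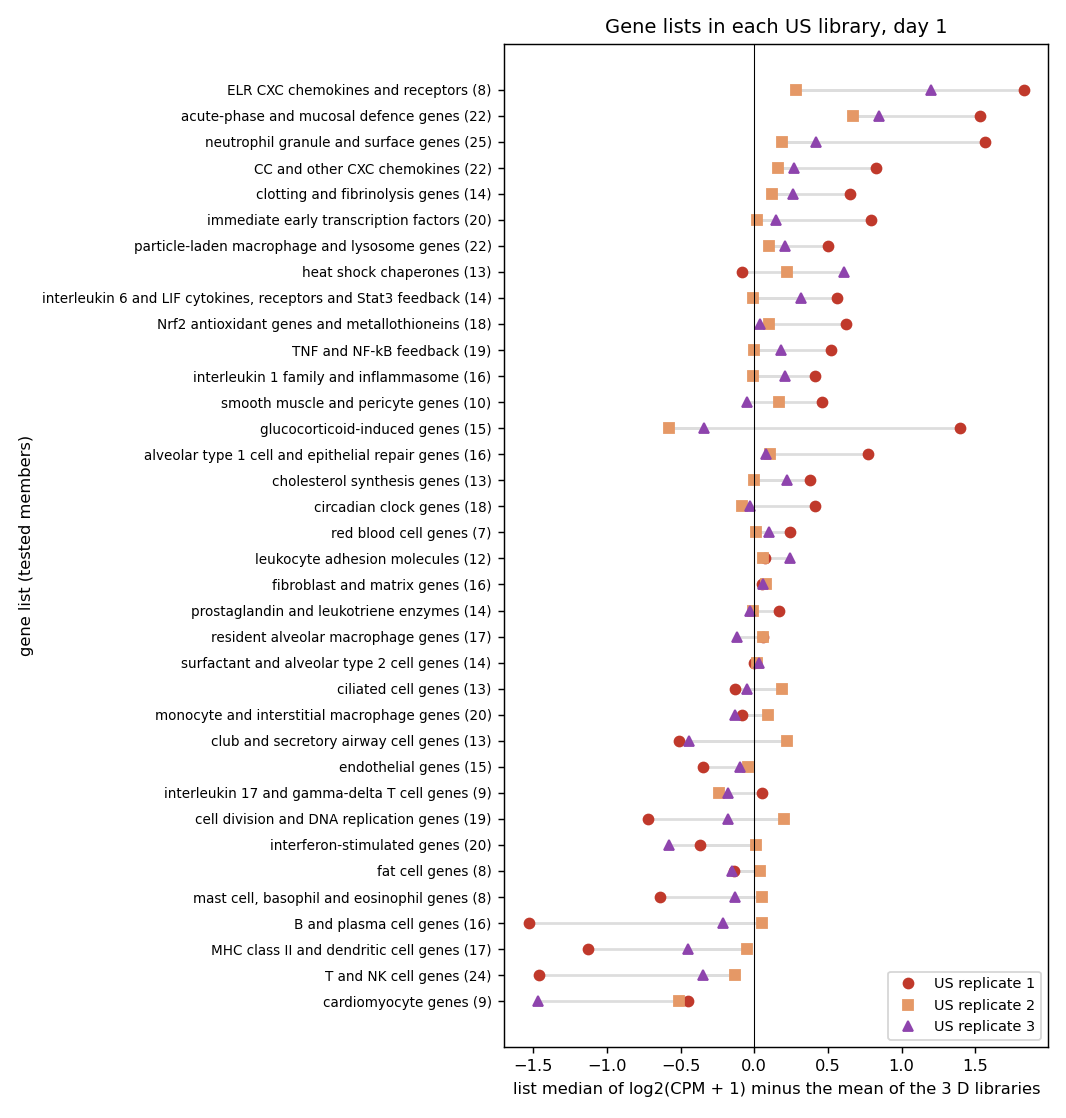
The 36 gene lists in each US library, ordered by the median fitted log2 fold change of their tested members (number in brackets). Each point is the list's median of log2(CPM + 1) minus the mean of the 3 D libraries. Replicate 1 (red circle) is the farthest from 0 for most lists at the top and for the lymphocyte and MHC class II lists at the bottom, at 1.53 for the acute-phase list, where the other replicates lie at 0.67 and 0.85.

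Macrophage genes were not called. Of 22 genes of particle-laden macrophages and lysosomes 22 had a positive value, 0 passed the threshold, and the median was 0.44, or 0.18 without US replicate 1. In 8 of them (36.4%) all US libraries lay above all D libraries. Gpnmb, a glycoprotein of lysosome-rich macrophages, was at 22.2, 17.6 and 29.3 CPM in D and 80.3, 38.7 and 65.2 CPM in US (1.48 ± 0.45). Cd68, a lysosomal membrane protein, was at 43.9 to 49.8 CPM in D and 57.1 to 89.0 CPM in US (0.71 ± 0.21), and the scavenger receptor Msr1 at 4.90 to 7.55 CPM and 8.27 to 26.4 CPM (1.47 ± 0.51). For these 3 genes the groups did not overlap. Resident alveolar macrophage genes had a median of 0.11, with 4 of 17 above and 4 below. Ctsk (1.06 ± 0.38) had the highest value of that list and Fabp1 (-0.85 ± 0.31) the lowest, with Marco at 0.86 ± 0.34. Monocyte and interstitial macrophage genes had a median of -0.01 over 20 members, although Vcan, a matrix proteoglycan of inflammatory monocytes, was at 8.73, 6.57 and 9.90 CPM in D and 39.6, 10.3 and 21.2 CPM in US (1.57 ± 0.37).

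Lymphocyte and dendritic cell genes had mostly negative values, and none was called. All 24 tested T and NK cell genes had a negative value, 0 passed the threshold, and the median was -0.53, from -0.22 without US replicate 1 to -0.89 without US replicate 2. In 10 of them (41.7%) all US libraries lay below all D libraries, against 10.4% of all genes. This list too was chosen with earlier results known, so the share is no test. Nkg7, a granule protein of cytotoxic cells, was at 18.4, 16.8 and 17.9 CPM in D and 3.17, 14.1 and 9.81 CPM in US (-0.93 ± 0.42). Prf1, perforin, was at 9.22 to 10.8 CPM in D and 1.75, 9.10 and 6.19 CPM in US (-0.81 ± 0.37), and Cd8a (-0.62 ± 0.25) and Klrk1 (-0.58 ± 0.25) lay below D in all 3 US libraries too. Summed levels of the list were 345 to 394 CPM in D and 139, 329 and 283 CPM in US.

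B and plasma cell genes had a median of -0.41 over 16 members, from -0.04 without US replicate 1 to -0.68 without US replicate 2. Cd79b, a signalling subunit of the B cell receptor, was at 58.0 to 64.3 CPM in D and 20.4, 57.3 and 39.0 CPM in US (-0.59 ± 0.27). The groups did not overlap for Cd79b, and US replicate 1 was the lowest library. In 2 of the 16 members (12.5%) all US libraries lay below all D libraries, against 10.4% of all genes. The B cell list summed to 599 to 739 CPM in D and to 212, 692 and 569 CPM in US, so that the sums overlapped. MHC class II and dendritic cell genes had a median of -0.43, from -0.19 without US replicate 1 to -0.73 without US replicate 2, and 6 of 17 (35.3%) lay below D in all US libraries. Clec9a, a receptor of cross-presenting dendritic cells, was at 5.76, 10.1 and 5.30 CPM in D and 1.75, 4.47 and 3.57 CPM in US (-1.05 ± 0.26, adjusted p = 0.0662). Flt3, the growth factor receptor of dendritic cell precursors, was at 7.09 to 7.25 CPM in D and 3.50 to 5.62 CPM in US (-0.61 ± 0.22). Of the 17 members 15 had a negative value. The 2 with a positive value were Zbtb46 (0.37 ± 0.12) and Ccl22 (0.66 ± 0.28).

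Several stress-response genes differed widely among the US libraries. Of 15 glucocorticoid-induced genes 0 rose, 0 fell and 0 had groups without overlap. Their median was 0.33 with all libraries and -0.37 without US replicate 1. Fkbp5, a chaperone that the glucocorticoid receptor switches on, was at 36.1, 40.1 and 43.7 CPM in D and at 245, 28.0 and 35.7 CPM in US (1.46 ± 0.49). Zbtb16, another target of that receptor, was at 12.4, 26.95 and 12.3 CPM in D and 119.5, 6.14 and 8.25 CPM in US (1.5 ± 0.72). Angptl4, chosen after its values were seen, was at 79.5 to 88.8 CPM in D and at 222.5, 23.6 and 18.4 CPM in US (0.19 ± 0.63, and -1.94 without US replicate 1). In each of the 3 genes US replicate 1 lay above every D library and US replicates 2 and 3 lay below the D mean. The list summed to 1794 to 1971 CPM in D and to 3791, 1280 and 1382 CPM in US.

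The metallothioneins, which bind zinc and copper, were not called. Mt2 was at 5.32, 4.175 and 8.31 CPM in D and at 182, 5.41 and 6.64 CPM in US (3.54 ± 0.76, adjusted p = 0.0544), and Mt1 at 11.0 to 17.2 CPM and at 127.1, 15.1 and 9.61 CPM (2.03 ± 0.57). The other US libraries lay inside the D range for Mt2. Timp1, an inhibitor of matrix proteases, was at 18.0, 6.94 and 13.3 CPM in D and 190, 19.0 and 32.5 CPM in US (2.75 ± 0.65). The clotting initiator F3 was at 43.6 to 48.0 CPM in D and 256, 45.1 and 60.1 CPM in US (1.48 ± 0.39). Selp, P-selectin, was at 4.175 to 5.57 CPM in D and 27.2, 5.62 and 6.49 CPM in US (1.5 ± 0.40).

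Among antioxidant genes Hmox1, heme oxygenase 1, was at 46.6, 39.1 and 49.7 CPM in D and 73.2, 58.5 and 57.5 CPM in US (0.55 ± 0.14, adjusted p = 0.076). Slc7a11, the cystine carrier, was at 1.73 to 1.94 CPM in D and 11.2, 3.48 and 7.95 CPM in US (2.13 ± 0.51, adjusted p = 0.0581). Of 18 Nrf2 and metallothionein genes 0 passed the threshold, and the median was 0.37, or 0.11 without US replicate 1. Per library the list's medians were 0.62, 0.10 and 0.04 above D in US replicates 1 to 3. The heat shock chaperones summed highest in US replicate 3. Hspa8 was at 1457, 1095 and 1270 CPM in D and at 1421, 1528 and 2356 CPM in US (0.53 ± 0.16), and the mitochondrial chaperone Hspd1 at 150.2, 129.1 and 159.3 CPM and 173, 176 and 222 CPM (0.44 ± 0.11, adjusted p = 0.0581). All 13 chaperones had a positive value, 0 passed the threshold, and the median was 0.44, or 0.17 without US replicate 3. They summed to 2090 to 2667 CPM in D and to 2496, 2833 and 4197 CPM in US.

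**Figure D4:**
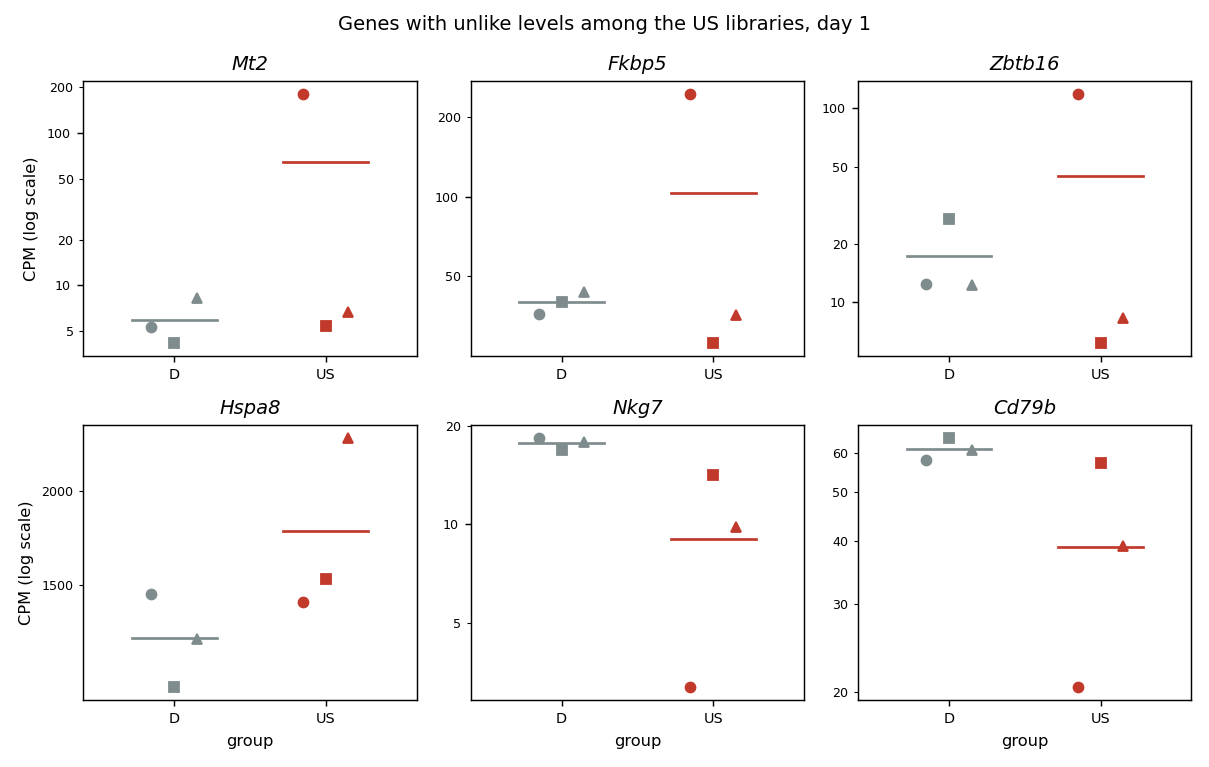
Levels of 6 genes in the D and US libraries of day 1, in CPM on a log scale, with a bar at each group mean (circle, square and triangle for replicates 1 to 3). US replicate 1 is far above the other libraries for Mt2, Fkbp5 and Zbtb16 and far below them for Nkg7 and Cd79b, and US replicate 3 is the highest for Hspa8.

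No gene of the lists of the lung's own cells was called. Lists of surfactant and alveolar type 2 cells, ciliated cells and endothelium had medians of 0.09, 0.04 and -0.05. Club and secretory airway cell genes had a median of -0.04 that moved to -0.91 without US replicate 2 and to 0.15 without US replicate 3. Alveolar type 1 and epithelial repair genes had a median of 0.33, or 0.21 without US replicate 1. Of the 16 members 15 were positive and 9 were at an unadjusted edgeR p under 0.05. Over all 16903 genes 50.9% were positive and 2724 were under that p, and other lists had such counts too. Sftpd, a surfactant collectin of innate defence, was at 1133, 1259 and 1302 CPM in D and 1948, 1535 and 1471 CPM in US (0.49 ± 0.18), without overlap. Pdpn, podoplanin of alveolar type 1 cells, was at 129.1, 113.5 and 126.9 CPM in D and 221, 140 and 176 CPM in US (0.61 ± 0.15, adjusted p = 0.0615). Ereg, the growth factor epiregulin, was at 0.0619 to 0.255 CPM in D and 7.5, 0.156 and 0.604 CPM in US (4.07 ± 1.01), so that it overlapped and was led by US replicate 1. Aplnr, a receptor of capillary endothelium, was at 99.7 to 103.3 CPM in D and 18.4, 91.3 and 81.5 CPM in US (-0.62 ± 0.35), while Nos3, the endothelial nitric oxide synthase, had a value of 0.52 ± 0.20.

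Cardiomyocyte genes, which in lung mark the heart muscle sleeve of the veins, had the lowest median of the 36 lists, -1.08. Of 9 tested members 0 were called, and in 3 (33.3%) all US libraries lay below all D libraries. Tnni3, cardiac troponin I, was at 8.73, 6.08 and 10.2 CPM in D and 2.76, 5.15 and 1.16 CPM in US (-1.42 ± 0.49), and Sln, sarcolipin of the atrium, at 1.47 to 2.54 CPM and 0.0503 to 0.676 CPM (-2.22 ± 0.98). The list summed to 111.4, 70.7 and 183 CPM in D and to 102.2, 96.3 and 47.7 CPM in US, so that the sums overlapped. Interferon-stimulated genes had a median of -0.22 over 20 members, from -0.43 without US replicate 2 to -0.12 without US replicate 3, and 0 calls. Mx2 was at 7.43 to 8.16 CPM in D and 3.73 to 7.23 CPM in US (-0.55 ± 0.29). Cxcl10 was at 1.47 to 3.62 CPM in D and 3.64 to 9.71 CPM in US (1.43 ± 0.62). In Cxcl10 alone (5.0%) all US libraries lay above all D libraries, and in Mx2 alone (5.0%) all lay below. Over all genes those shares were 5.72% and 10.4%, and the other members of the list overlapped. The remaining 13 lists had medians between -0.33 and 0.54 and 0 called members.

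The other called genes belong to no list. Hcar2, the receptor for niacin and ketone bodies on neutrophils and macrophages, was at 4.71, 6.82 and 6.22 CPM in D and 24.4, 9.41 and 17.4 CPM in US and rose by 1.61 ± 0.32 (adjusted p = 0.0351). Vnn3, a pantetheinase of the vanin family, was at 8.36, 8.35 and 9.23 CPM in D and 22.0, 17.3 and 23.6 CPM in US and rose by 1.34 ± 0.23 (adjusted p = 0.0113). The US libraries were close together for Vnn3 and spread out for Hcar2. Vnn1, of the same family and chosen after its values were seen, was not called with all libraries (0.66 ± 0.19, adjusted p = 0.0929). Mab21l3 was at 0.433, 0.123 and 0.204 CPM in D and at 1.43, 1.35 and 1.61 CPM in US and rose by 2.58 ± 0.51 (adjusted p = 0.0351). Lrrc59, a ribosome-binding protein of the endoplasmic reticulum, was at 73.0, 71.1 and 79.0 CPM in D and 158, 84.5 and 117.6 CPM in US and rose by 0.76 ± 0.16 (adjusted p = 0.0484). It overlaps Eme1 on the other strand, which had 699 counts over all libraries against 60452. Without US replicate 1 the adjusted p was 0.307 for Hcar2, 0.0869 for Vnn3, 0.17 for Mab21l3 and 0.403 for Lrrc59.

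Amer2, a regulator of Wnt signalling at the cell membrane, had 0 counts in each D library and 37, 9 and 15 counts in US, or 1.70, 0.468 and 0.755 CPM. Against a floor of 3 counts over the 3 D libraries it was at least 17.4-fold higher in US (adjusted p = 0.00553). The fitted log2 fold change of such a gene rests on the software's prior count and is not given. Amer2 was present in every library of S and L at day 1 (0.255 to 1.08 CPM) and of D at day 7 (0.152 to 0.174 CPM), so that only the D libraries of day 1, among these 12, had none.

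Slco5a1 (ENSMUSG00000025938), a member of the organic anion transporter family, spans 12866549 to 12992650 on chromosome 1. It was at 7.30, 6.20 and 5.51 CPM in D and at 1.20, 2.50 and 2.06 CPM in US. Every US library was below every D library by a wide gap. Slco5a1 fell by 1.67 on the log2 scale (SE 0.27, adjusted p = 0.00653, or 0.096 without US replicate 1). Sfxn4, a mitochondrial sideroflexin, was at 7.99, 10.7 and 7.14 CPM in D and 4.42, 5.62 and 5.23 CPM in US, and fell by 0.69 (SE 0.14, adjusted p = 0.0484, or 0.307 without US replicate 1). Ccdc28a was at 8.79, 9.15 and 9.18 CPM in D and at 3.73, 5.77 and 5.08 CPM in US, and fell by 0.84 (SE 0.17, adjusted p = 0.0351, or 0.307 without US replicate 1).

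The sizes were compared directly at day 1, without D libraries. Of 16903 genes 3 differed between US and S (0.0177%, edgeR with Benjamini-Hochberg adjustment), beside 2315 at an unadjusted p under 0.05. Bysl, needed to build the small ribosomal subunit, was at 25.5, 22.2 and 22.8 CPM in US and 11.9, 14.6 and 13.6 CPM in S (0.83, adjusted p = 0.00611). Glipr2 was at 40.6, 44.5 and 42.0 CPM in US and 22.7, 26.8 and 28.0 CPM in S (0.73, adjusted p = 0.00611). Fbxo32, a ubiquitin ligase of muscle wasting, was at 15.7, 18.7 and 19.6 CPM in US and 38.6, 33.6 and 26.9 CPM in S (-0.86, adjusted p = 0.0143). The D libraries lay between US and S for Bysl (17.8 to 19.1 CPM) and Fbxo32 (20.5 to 23.9 CPM), and overlapped US for Glipr2 (38.0 to 44.0 CPM). Without S replicate 1 none of the 3 calls held, and 1 other gene passed. Between US and L 0 genes passed (0%), with 1060 at an unadjusted p under 0.05 and 20 calls by DESeq2.

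None of the 15 genes called against D differed between US and the other sizes at this threshold. Cxcl5 was at 0.0510, 4.71 and 5.95 CPM in S and 1.31, 1.52 and 0.102 CPM in L. The difference was 1.99 ± 0.64 from S (adjusted p = 0.18) and 3.85 ± 0.73 from L (adjusted p = 0.0971) on the log2 scale. Lcn2 was at 141.5, 1046 and 1300 CPM in S and 416, 640 and 150 CPM in L, and the differences were 0.72 (adjusted p = 0.54, and -0.12 without US replicate 1) and 1.77 (adjusted p = 0.422). Slco5a1 was at 4.84, 2.82 and 2.44 CPM in S and 3.18, 3.91 and 2.82 CPM in L, all below the lowest D library, with differences of -0.81 (adjusted p = 0.191) and -0.77 (adjusted p = 0.578). S replicate 1 and L replicate 3 were below the D range for Cxcl5 and inside it for Lcn2, which widened the spread in S and L. Differences of these sizes were therefore not shown, nor was their absence.

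The US effect at day 7 (US minus D) differed from that at day 1 for 23 genes (0.136%), 7 higher and 16 lower at day 7. None passed without D replicate 1 or 2 of day 1, or without US replicate 1 or 3 of day 7, and 44 passed without US replicate 2 of day 7. Slco5a1 was at 3.88, 6.24 and 4.81 CPM in D and 6.87, 6.41 and 4.08 CPM in US at day 7, with overlap, and its effect was higher by 1.85 than at day 1 (adjusted p = 0.0321). Nfkb2, the NF-kB subunit, was at 35.4 to 45.7 CPM in D and 32.55 to 37.1 CPM in US at day 7 (difference of effects -0.80, adjusted p = 0.045). Bcl3 was at 9.36 to 17.1 CPM in D at day 7 and 6.51 to 9.27 CPM in US (-1.61, adjusted p = 0.045). Both genes were thus above D at day 1 and mostly below it at day 7. The clock genes Per3 (1.48), Hlf (1.36) and Npas2 (-2.22) were also among the 23 genes. The sources used here do not give the hour at which lungs were taken. Its part in any of the 23 differences was not tested. Sfn, an epithelial 14-3-3 protein, was at 11.5 to 14.0 CPM in D and 16.7 to 40.1 CPM in US at day 1, and at 17.1 to 21.3 CPM and 9.09 to 11.8 CPM at day 7 (-1.95, adjusted p = 0.0457).

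At day 7 some inflammatory genes overlapped between D and US and others did not. Cxcl5 was at 0.637, 0.807 and 0.658 CPM in D and 0.183, 0.629 and 1.07 CPM in US at day 7, and Lcn2 at 149.6 to 189.4 CPM and 150.4 to 220.0 CPM. Groups overlapped for both. Cxcl2 was at 0.289, 0.645 and 0.506 CPM in D and 1.37, 0.801 and 1.22 CPM in US, and Ccl3 at 2.37, 2.47 and 1.77 CPM in D and 2.79, 5.26 and 3.69 CPM in US, with all US libraries above all D libraries for both. The difference of effects was -4.89 for Cxcl5 (adjusted p = 0.0993), -2.83 for Lcn2 (adjusted p = 0.105), -1.87 for Cxcl2 (adjusted p = 0.429) and -0.59 for Ccl3 (adjusted p = 0.552), none past the threshold. At day 28 Cxcl5 was at 2.68, 2.45 and 4.59 CPM in D and 1.77, 0.6505 and 2.35 CPM in US, so that the US libraries were the lower ones.

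**Figure D5:**
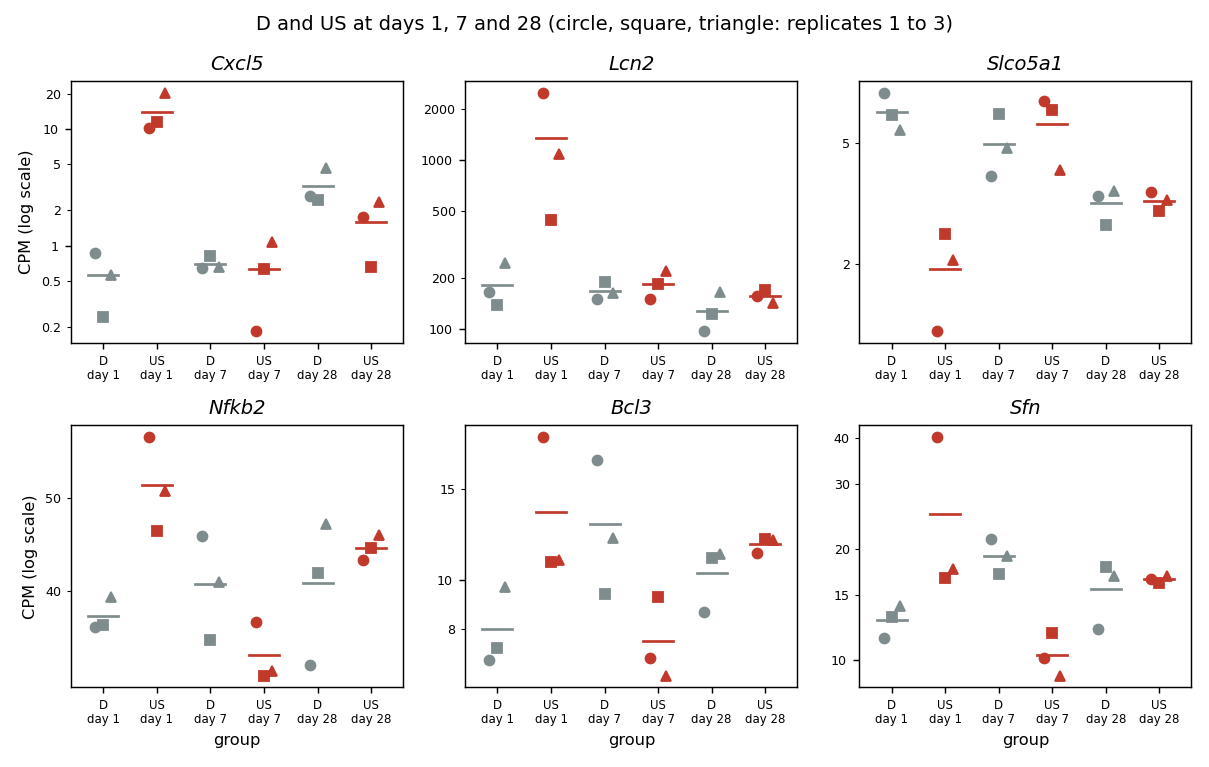
D (grey) and US (red) libraries at days 1, 7 and 28 for 6 genes, in CPM on a log scale, with a bar at each group mean (circle, square and triangle for replicates 1 to 3). At day 1 Cxcl5 and Lcn2 lie above D and Slco5a1 below it in all US libraries. The groups overlap for these genes at day 7. The D libraries lie higher at day 28 than at day 1 for Cxcl5. Nfkb2, Bcl3 and Sfn lie above D in US at day 1 and mostly below it at day 7.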

How the data were processed

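Poly(A) RNA of lung was sequenced in stranded libraries, per the labels' protocols. STAR 2.5.1b, featureCounts 1.5.1, StringTie 1.3.3, bcl2fastq 2.19.1.403 and CASAVA, and the builds GRCm38 and GRCh37, appear with no stated role in the submitters' processing notes. Which annotation was used, and whether counting used strand, is not given in the sources used here. The authors deposited 1 table of unnormalized read counts for 46078 genes, analysed here as deposited. The authors also deposited TPM, FPKM and coverage values per gene and library, per the file headers, already scaled within each library (TPM, FPKM) or given as coverage. TPM served to compare levels between genes and as an alternative, and FPKM and coverage were not used. Positions are the files' own; 99.94% of 45143 genes overlap their GENCODE M21 span, which is on GRCm38.

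Counts were tested with edgeR 4.0.16 (R 4.3.3) by quasi-likelihood with TMM scaling, a filter on low counts over 12 groups, and 1 mean per group in all 36 libraries, which share one estimate of spread. P-values were adjusted by Benjamini-Hochberg over 16903 genes, with a threshold of 0.05. CPM is a count over the library's total, and SE is the log2 fold change over the root of the F statistic. Scripts were tested on simulated data. Named genes are the called ones, and up to 4 per list with the smallest p and a mean of at least 1 CPM; others are marked in the text. The members and the 36 lists (538 genes tested) were chosen with earlier results of these data known. Alternatives were DESeq2 1.42.0, RLE scaling, no filter, a replicate block, only the groups compared, limma 3.58.1 on log2(TPM + 1) where the mean reached 1 TPM, and fits that omit 1 replicate. Library totals are counting depth only and do not cover differences between animals. Replicate numbers were not treated as pairs. Promoters are RefSeq sequences of GRCm38.p6. Other materials and later days were not analysed here beyond the values printed.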

Additional observations from a re-analysis of the deposited data

Results flagged for a closer look

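For 13 named genes the US effect (US minus D) at day 7 differed from that at day 1, tested as the difference of the 2 effects in edgeR's quasi-likelihood test with Benjamini-Hochberg adjustment. Each value is on the log2 scale, day 7 minus day 1. The effect was higher at day 7 for Slco5a1 (1.85), the serine protease gene Htra4 (1.82), the clock genes Per3 (1.48) and Hlf (1.36) and Fam214a (0.85). It was lower at day 7 for the NF-kB genes Nfkb2 (-0.8) and Bcl3 (-1.61), the epithelial gene Sfn (-1.95), the smooth muscle gene Cnn1 (-1.46), Gm13889 (-2.58), the growth arrest gene Gadd45g (-2.27), the clock gene Npas2 (-2.22) and the vasopressin receptor gene Avpr1a (-2.17).

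Per3, Hlf and Npas2 follow the time of day. At day 7 Per3 stood at 37.2, 35.2 and 18.5 CPM in D and 92.2, 71.7 and 101.3 CPM in US, and Npas2 at 10.5, 7.80 and 16.8 CPM in D and 1.51, 2.46 and 1.26 CPM in US. The hour at which lungs were taken is not given in the sources used here. Its part in these values and in the other differences above was not tested.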

How the results depend on the processing

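Counts of called genes depended on the test and on single libraries, and the cause was not tested. For US against D, 15 genes with edgeR became 343 with DESeq2 (13 of the 15 among them), 137 with no filter on low counts, 9 with the replicate block, 2 with only the groups compared (Ccl20 and Cxcl5) and 1 with limma on log2(TPM + 1) (Cxcl5), and 0 to 887 when 1 replicate was left out. For US against S, 3 became 1.3e+02 with DESeq2 (88 higher and 41 lower), 0 with limma on log2(TPM + 1), 0 with only the groups compared and 1 to 30 with a replicate left out. For US against L, 0 became 20 with DESeq2, 2 with no filter and 0 to 9 with a replicate left out. For the difference between days, 23 became 211 with DESeq2, 49 with no filter, 10 with the replicate block, 10 with limma, 2 with only the groups compared and 0 to 44 with a replicate left out. RLE scaling gave 14, 3, 0 and 24 calls in the 4 comparisons. Deviations from the group mean had correlations of -0.028, 0.074 and -0.225 between same-numbered D and US libraries. Between other-numbered ones they ran from -0.116 to 0.159. With 3 libraries per group these values cannot decide whether libraries were paired. The labels do not state that the numbers pair libraries, so the numbers were not taken as pairs.

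Without US replicate 1 the direction turned for 7 values. With 1 replicate left out, the log2 fold change ran from -0.07 to 2.5 for Mt1, -0.28 to 1.92 for Fkbp5, -1.2 to 2.02 for Zbtb16, -0.37 to 1.7 for Map3k6, -0.27 to 0.18 for Cxcl15 and -1.94 to 0.65 for Angptl4 against D, and from -0.12 to 1.2 for Lcn2 against S. Angptl4 was also at -1.16 with limma on log2(TPM + 1) and -0.05 with the replicate block. Depth limits the genes under 1 CPM, such as Amer2 with 0 counts in D.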
